A study of Cenchrus americanus with 9 samples.

Results

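A set of 40 genes of the pearl millet root table varied strongly between replicates in every root type, and they are described here across the 9 libraries. A gene was taken where its mean normalised count over the 9 libraries was at least 200, no library was at 0, and the highest of 3 replicates was at least 2.5 times the lowest within primary, within crown and within lateral roots alike. Of 19754 genes in the table, 14107 had such a mean and no 0 (called well expressed below), and 40 of these met the rule. The normalised count is a read-derived count divided by 1 factor per library and is not divided by gene length, so the levels of different genes are not set against each other as expression.

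The plants were of the genotype Tift23DB, the pearl millet reference line, and no treatment or second genotype was included. They grew for 15 days in rhizotrons, thin boxes with a transparent face. The groups were primary root tips (the last 5 cm), crown root tips (the last 5 cm) and lateral roots taken from primary roots, with 3 replicates of each, and each replicate was a pool of roots from 3 plants. The sources do not say whether replicates of the same number in different root types shared plants, so p-values measure the spread between these pools only.

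The primary root is the root formed in the embryo. Crown roots arise later from the base of the shoot, and lateral roots branch from roots that already exist. Pooling several plants before RNA extraction averages differences among single plants, so what remains between pools holds differences among sets of plants, in sampling and in library preparation, which cannot be told apart in this design. In whole tissue, fewer cells of one kind and less RNA per cell cannot be told apart either. The genes are known by identifier only, since no annotation was used here, and no function is given to any of them.

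Libraries differed in depth, with totals of recovered counts from 39739052 to 64062081. In each of them every value was a whole multiple of 1 step, within 0.1 of a step, but 1 such count is not known to equal 1 read. The 40 genes gave 360 values, of which 31, in 17 genes, stood at 30 recovered counts or fewer. The lowest was 4 counts. The other 23 genes were above 30 counts in every library.

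The condition of a wide ratio was met least often in lateral roots. Among the 14107 well expressed genes, a ratio of at least 2.5 between replicates was found for 393 (2.79%) in primary, 676 (4.79%) in crown and 239 (1.69%) in lateral roots. The 40 genes that met it in all root types were 10.2%, 5.92% and 16.7% of these sets. A further 251 genes met it in exactly 2 root types and 686 in exactly 1. The median ratio over the well expressed genes was 1.24 in primary, 1.37 in crown and 1.27 in lateral roots, against 4.50, 3.95 and 3.82 among the 40. These ratios chose the genes and carry no test. At the threshold, Pgl_GLEAN_10022262, Pgl_GLEAN_10022182 and Pgl_GLEAN_10007586 were just inside, with smallest ratios of 2.51, 2.56 and 2.56. Pgl_GLEAN_10015190, Pgl_GLEAN_10012175 and Pgl_GLEAN_10016428 were just outside, with 2.49, 2.44 and 2.42. The means of the 40 genes ran from 207 to 1885 with a median of 369, against a median of 1295 over the well expressed genes, so they lay towards the lower end of that set. A further 243 genes without a 0 had ratios of at least 2.5 in every root type but a mean under 200.

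**Figure D1:**
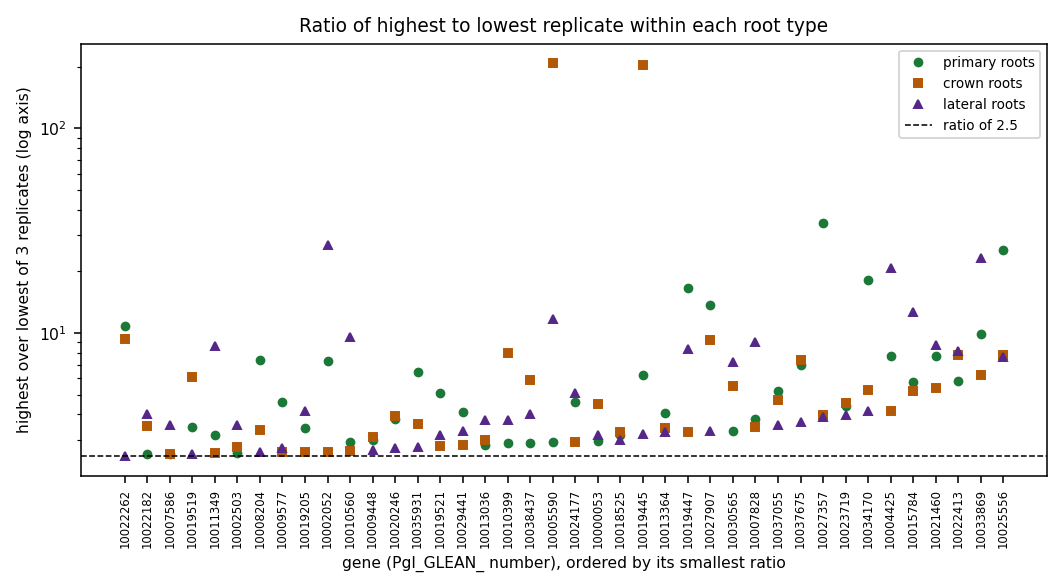
Ratio of the highest to the lowest of 3 replicates (log axis) within primary (circles), crown (squares) and lateral roots (triangles) for each of the 40 genes, ordered by the smallest of its ratios, with the threshold of 2.5 dashed. Most points lie under 10, and the crown root ratios of Pgl_GLEAN_10005590 (208) and Pgl_GLEAN_10019445 (204) stand apart.

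The spread took different forms. Pgl_GLEAN_10025556 had the highest value for the smallest of its 3 ratios, 7.64. Its normalised counts were 111, 12.2 and 311 in primary, 2415, 310.4 and 563 in crown and 11.9, 91.0 and 14.6 in lateral roots, in the order of the replicate numbers, as for all genes below. Its crown root libraries were the highest, but crown root replicate 2 was level with primary root replicate 3, so these ranges met. Pgl_GLEAN_10022413, which was among the 6 genes with the highest smallest ratio, had 571, 103 and 603 in primary, 83.6, 655 and 161 in crown and 866, 829 and 106 in lateral roots. It was low in 1 or 2 libraries of each root type, and the ranges of the root types overlapped throughout. The widest ratios were those of 2 genes in crown roots, of which Pgl_GLEAN_10005590 was picked out after the values were seen. Pgl_GLEAN_10019445 had 5989, 29.4 and 885 in crown roots, with all 3 libraries far apart. Pgl_GLEAN_10005590 had 1123, 730.5 and 5.40, where replicate 3 alone was low. Both were at 91.5 or above in every library outside crown roots.

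The genes did not scatter evenly over the replicates, most clearly in lateral roots. For each gene, the deviation of each library from the mean of its root type was taken on the log2(normalised count + 1) scale. Lateral root replicate 1 was the highest lateral library for 28 of the 40 genes, while it was the highest for 36.5% of the well expressed genes. Primary root replicate 2 was the highest primary library for 20 genes (33.5% of the well expressed genes), and crown root replicate 1 the highest crown library for 20 (46.5%). The crown root count was near that share. The most frequent lowest library of lateral roots was replicate 3, for 19 genes (36.8% of the well expressed genes). In crown roots it was replicate 2, for 21 genes (26.7%), and in primary roots replicate 3, for 16 genes (33.5%). The median deviation of the 40 genes was 0.89 in lateral root replicate 1, 0.67 in crown root replicate 1 and 0.63 in primary root replicate 2. Over the well expressed genes these medians were -0.02, 0.04 and -0.01. Division by 1 factor per library sets such medians near 0, so they cannot show whether the libraries as a whole were shifted. The median absolute deviation of the well expressed genes was 0.15 in lateral root replicate 1, 0.22 in crown root replicate 1 and 0.12 in primary root replicate 2. Each was the largest of its root type. Lateral root replicate 1 was also the lowest lateral library for 42.7% of these genes. A rule that takes wide ratios favours such libraries.

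Of the 27 possible combinations of highest libraries, the 40 genes held 12. The commonest, highest in primary root replicate 2, crown root replicate 3 and lateral root replicate 1, was held by 13 genes (32.5%), while it was held by 6.47% of the well expressed genes. Replicate 1 was highest in all 3 root types for 6 genes (15.0% against 5.13%). Primary root replicate 3, crown root replicate 1 and lateral root replicate 2 were highest for 5 genes (12.5% against 7.08%). These shares are descriptions, since the same values chose the genes. The same replicate number was highest in every root type for 7 genes in all (17.5%), and for 8.39% of the well expressed genes.

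**Figure D2:**
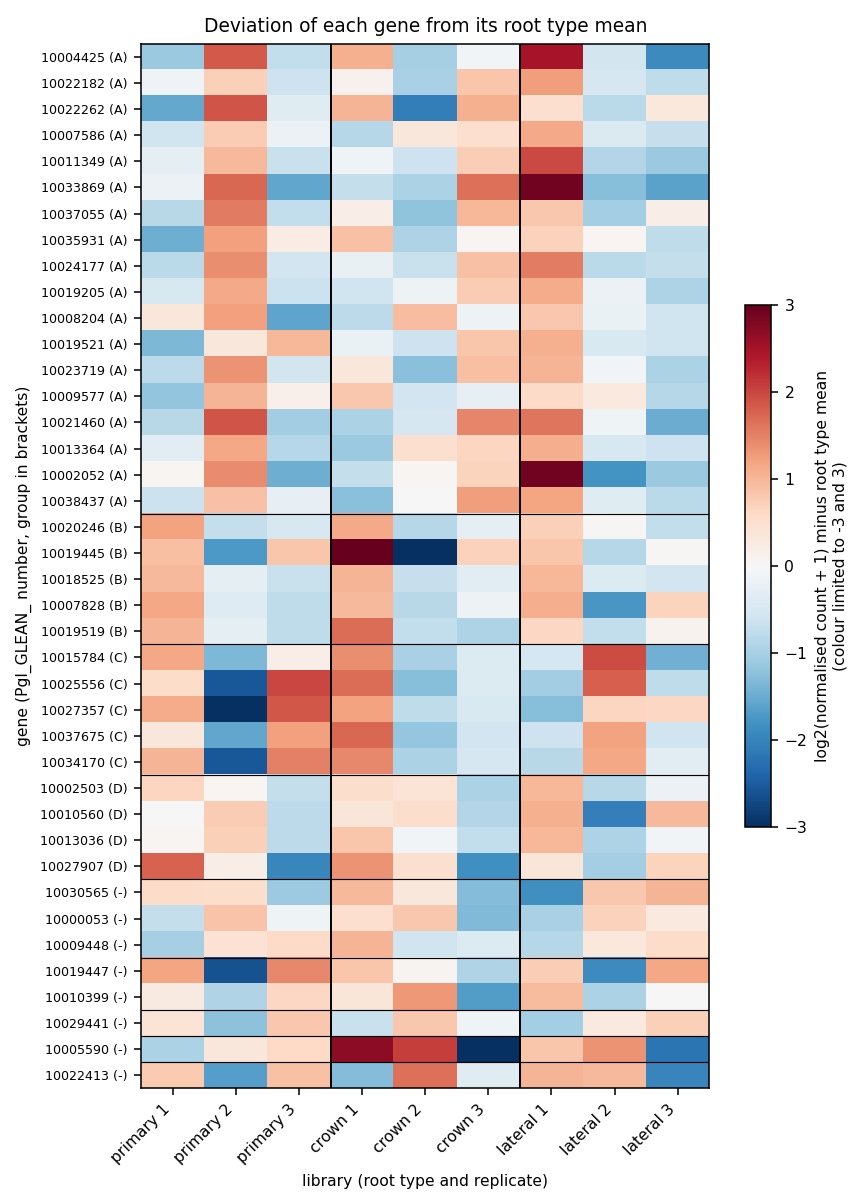
Deviation of each of the 40 genes (rows, ordered by group) from the mean of its root type in each of the 9 libraries (columns), in units of log2(normalised count + 1), with red above and blue below the mean and colours limited to -3 and 3. The 18 genes of group A are red in primary root replicate 2 and lateral root replicate 1, while the 5 genes of group C are blue in both.

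The genes were grouped by the correlation of their deviations over the 9 libraries (average linkage, cut at a distance of 0.5). This gave 9 groups, of which group A held 18 genes, groups B and C 5 each and group D 4, while 8 genes fell into smaller groups. Of the 780 pairs of genes, 194 (24.9%) had a Pearson's r above 0.5 and 93 (11.9%) one below -0.5. Over all pairs of well expressed genes these shares were 18.5% and 17.7%. A first axis of variation held 42.1% of the variance of the standardised deviations of the 40 genes, against 36.2% for the well expressed genes. Its weights were largest in primary root replicate 2 (0.55) and lateral root replicate 1 (0.54), followed by primary root replicate 3 (-0.31). On this axis 23 genes lay on the positive and 17 on the negative side. Deviations within a root type sum to 0 and all genes share the same 9 libraries, so these correlations rest on 6 degrees of freedom and no p is given. The groups were made from these correlations, so the likeness of genes within a group, given below, follows from the grouping and is a description.

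Group A was marked by 3 libraries. All 18 of its genes were above their root type mean in primary root replicate 2 and in lateral root replicate 1, and 15 were in crown root replicate 3. Over replicates 1, 2 and 3 the median level of the group ran 218, 860 and 281 normalised counts in primary roots, then 132, 74.6 and 201 in crown roots, then 773, 235 and 135 in lateral roots. The summed level of the group was 19024 in primary root replicate 2 against 4676 and 5318 in the other primary root libraries. In lateral roots it was 17869 in replicate 1 against 4832 and 4463. In crown roots the contrast was smaller, 5238 in replicate 3 against 3804 and 2298. Between genes of the group the median r was 0.69, from -0.14 to 0.99.

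The most central gene of group A by its median correlation with the rest (0.85) was Pgl_GLEAN_10024177. It had 241, 1113 and 286 normalised counts in primary, 138, 102 and 301 in crown and 614, 121 and 128 in lateral roots. Only 1 library stood out in each root type, and the other 2 lay close together. Pgl_GLEAN_10021460 had 82.6, 548 and 71.1 in primary, 114, 156 and 612 in crown and 462, 138 and 53.0 in lateral roots. Its closest neighbour was Pgl_GLEAN_10019205 (r = 0.99), with 307, 944 and 276 in primary, 25.1, 34.5 and 65.8 in crown and 707, 286 and 169 in lateral roots. These genes deviated nearly in step although the first reached 462 or more in every root type and the second no more than 65.8 in crown roots. Pgl_GLEAN_10023719 had 136, 598 and 161 in primary, 248, 81.2 and 368 in crown and 433, 202 and 109 in lateral roots, and its root types overlapped.

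The widest ratios of group A were in lateral roots. Pgl_GLEAN_10004425, the gene of the group with the highest mean, had 581, 4501 and 745 in primary, 1343, 322 and 607 in crown and 4721, 580.4 and 228 in lateral roots. Its replicate 1 was the highest library in crown as well as in lateral roots, unlike the 14 genes of the group that peaked in crown root replicate 3. Pgl_GLEAN_10033869 had 444, 1667 and 169 in primary, 58.5, 49.7 and 309 in crown and 916, 50.6 and 39.5 in lateral roots, a ratio of 23.2 in lateral roots. Of the genes at the threshold, Pgl_GLEAN_10022262 (148, 1595 and 333 in primary, 164, 18.3 and 171 in crown, 1266, 505 and 1104 in lateral roots) was level in 2 libraries of crown and of lateral roots. Pgl_GLEAN_10022182 had 541, 957 and 375 in primary, 459.9, 216 and 758 in crown and 1548, 461 and 387 in lateral roots. Pgl_GLEAN_10007586 had 333, 854 and 446 in primary, 274, 622 and 700.5 in crown and 859, 288 and 243 in lateral roots. Both were highest in the same 3 libraries as the group medians, while the order of the other libraries differed in part.

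Some genes outside the 40 had deviations that correlated with those of group A, at smaller ratios between replicates. Of the other 14067 well expressed genes, 68 (0.483%) had an r above 0.9 with the mean deviation of the group, and 148 had one below -0.9. For group B 99 genes (0.704%) were above 0.9 and 71 below -0.9, and for group C 173 (1.23%) and 55. The genes named next had the highest r of all 14067, so their r is high in part through that choice. The 3 most alike over the 9 libraries were Pgl_GLEAN_10004011 (r = 0.98), Pgl_GLEAN_10014680 (r = 0.97) and Pgl_GLEAN_10007207 (r = 0.97). Their smallest ratios within a root type were 1.10, 1.33 and 1.41. Pgl_GLEAN_10007207 had 148, 305 and 171 in primary, 138, 102 and 145 in crown and 413, 233 and 203 in lateral roots. It followed the same libraries at a ratio of 2.07 and 2.03 in primary and lateral roots and 1.41 in crown roots.

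**Figure D3:**
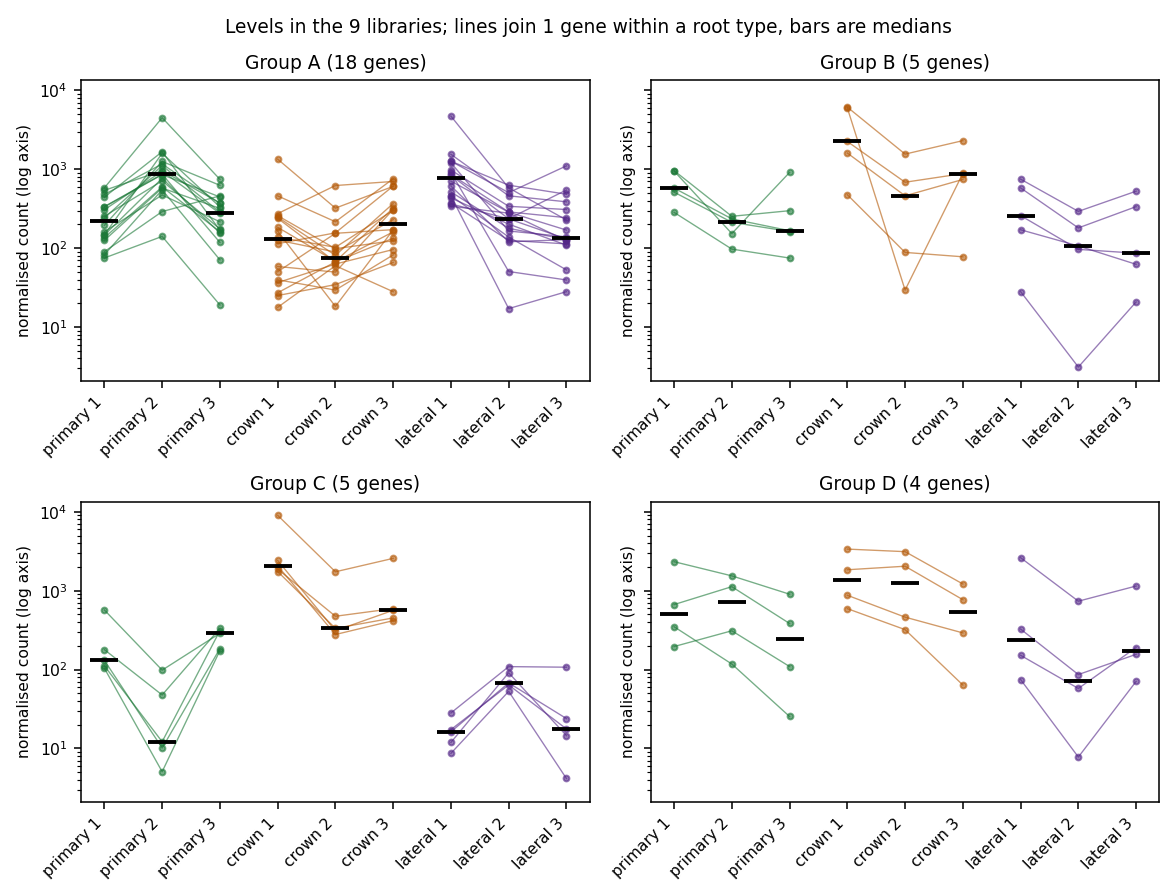
Normalised counts (log axis) in the 9 libraries for the genes of groups A, B, C and D, with primary roots in green, crown roots in orange and lateral roots in purple, thin lines joining the replicates of 1 gene within a root type and black bars at the group medians. Group A has its highest medians in primary root replicate 2 (860) and lateral root replicate 1 (773), and group C has its highest in crown root replicate 1 (2062).

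Group B was highest in replicate 1 of every root type, for all 5 of its genes. The median level was 578, 213 and 166 in primary, 2248, 461 and 881 in crown and 259, 107 and 86.3 in lateral roots, replicate by replicate. Its most central gene, Pgl_GLEAN_10018525, had 513, 213 and 163 in primary, 2248, 685 and 881 in crown and 259, 96.5 and 86.3 in lateral roots. Every crown root library was above every other, while primary and lateral roots overlapped. Pgl_GLEAN_10020246 had 961, 253 and 298 in primary, 6131, 1556 and 2305 in crown and 171, 107 and 62.4 in lateral roots, and the root types did not overlap. Pgl_GLEAN_10019519 had the reverse order of root types within the same movement, with 578, 235 and 166 in primary, 476, 88.3 and 77.7 in crown and 749, 293 and 527 in lateral roots.

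Group C was low where group A was high. All 5 of its genes had their lowest primary value in replicate 2 and their highest lateral value in replicate 2, and all were highest in crown root replicate 1. The median level was 131, 12.2 and 288 in primary, 2062, 333 and 563 in crown and 16.2, 67.7 and 17.7 in lateral roots. Between genes of the group r ran from 0.62 to 0.97, and the mean deviation of the group had an r of -0.62 with that of group A. Pgl_GLEAN_10034170 was the most central, with 131, 10.1 and 184 in primary, 1749, 333 and 451 in crown and 16.2, 67.7 and 23.9 in lateral roots. Pgl_GLEAN_10037675 had 179, 47.6 and 333 in primary, 2062, 278 and 417 in crown and 17.3, 63.8 and 17.7 in lateral roots. Pgl_GLEAN_10027357 had 104, 5.07 and 174 in primary, 1875, 474 and 593 in crown and 28.1, 109 and 107 in lateral roots. Within primary roots all 3 were lowest in replicate 2, and within crown roots all 3 were highest in replicate 1. Pgl_GLEAN_10027357 was nearly as high in lateral root replicate 3 as in replicate 2, unlike the others. Pgl_GLEAN_10015784 had 568, 98.3 and 288 in primary, 9014, 1735 and 2567 in crown and 8.66, 52.9 and 4.16 in lateral roots. Whether genes of a group share sequence, so that reads could be split between them, was not examined.

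Group D had its lowest values in replicate 3 of primary and of crown roots and in replicate 2 of lateral roots, for all 4 of its genes. Pgl_GLEAN_10002503, the gene with the highest mean of the 40, had 2329, 1540.0 and 902 in primary, 3364, 3122 and 1215 in crown and 2617, 735 and 1145 in lateral roots. The root types overlapped. Pgl_GLEAN_10010560 had 666, 1124 and 383 in primary, 1841, 2040.3 and 768 in crown and 74.7, 7.78 and 70.7 in lateral roots, where every lateral library was below every other. Among the 8 genes in smaller groups, Pgl_GLEAN_10019447 had 1632, 117 and 1944 in primary, 3872, 2301 and 1174 in crown and 598, 94.9 and 796 in lateral roots. It was lowest in replicate 2 of primary and of lateral roots. The genes least correlated with any other of the 40 were Pgl_GLEAN_10022413 (highest r 0.44) and Pgl_GLEAN_10009448 (highest r 0.58). Pgl_GLEAN_10009448 had 83.5, 227 and 249 in primary, 211, 68.0 and 77.7 in crown and 175, 399 and 469.9 in lateral roots, with replicate 1 low in primary and lateral but high in crown roots.

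Between libraries of different root types, the deviations of the 40 genes were most alike for primary root replicate 2 and lateral root replicate 1 (r = 0.56, the same sign in 29 genes) and for primary root replicate 3 and lateral root replicate 2 (r = 0.52, the same sign in 33). Over the well expressed genes these pairs had an r of 0.25 and 0.25. The most opposed pair was primary root replicate 3 and lateral root replicate 1 (r = -0.53). Primary root replicate 2 and crown root replicate 3 had an r of 0.35 among the 40 genes and 0.37 among the well expressed genes, so the likeness of that pair was not larger in the 40. For same-numbered libraries r ran from -0.40 to 0.29, and 1 of 9 pairs was above 0.1. The points of these correlations are genes, so they are not independent and no p is given.

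Depth stands beside this movement as follows. The libraries in which group A was high had 46567706 (primary root replicate 2), 49026933 (crown root replicate 3) and 45602970 (lateral root replicate 1) recovered counts. The last 2 were the shallowest of their root types and the first was the middle one. The share of the total held by the 10 most abundant genes was lowest of its root type in primary root replicate 2 (4.02%) and in crown root replicate 3 (4.54%), and highest of its root type in lateral root replicate 1 (4.52%). The part of either in the movement was not tested.

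The second question was whether root types differed beyond this spread. Among the 40 genes the mean normalised count was highest in crown roots for 16, in primary roots for 13 and in lateral roots for 11. It was lowest in crown roots for 23, in lateral roots for 16 and in primary roots for 1. By this mean, primary roots lay between or above the others for nearly all. On the log2 scale some other genes, such as Pgl_GLEAN_10027357, were lowest in primary roots. Among the well expressed genes crown roots were highest for 39.8%, primary roots for 22.7% and lateral roots for 37.6%. Crown roots were lowest for 34.8% of them, lateral roots for 41.5% and primary roots for 23.7%. Groups differed in this order. Crown roots had the lowest mean for 16 of the 18 genes of group A, and the highest for all 5 of group C, all 4 of group D and 4 of 5 of group B.

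The spread within root types, pooled over the 3 types, had a median SD of 1.14 on the log2 scale among the 40 genes, from 0.82 to 2.67, against 0.23 among the well expressed genes. The SD of the 3 root type means had a median of 1.04, from 0.14 to 3.97, against 0.24. It was above the SD within root types for 17 genes. The SD of 3 means also holds error from within root types, which the rule chose to be wide, so its higher median in the 40 is not read as a difference between root types. The share of the sum of squares that lay between root types had a median of 41.6%, against 53.8% for the well expressed genes. This share, too, depends on the spread that the rule chose.

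**Figure D4:**
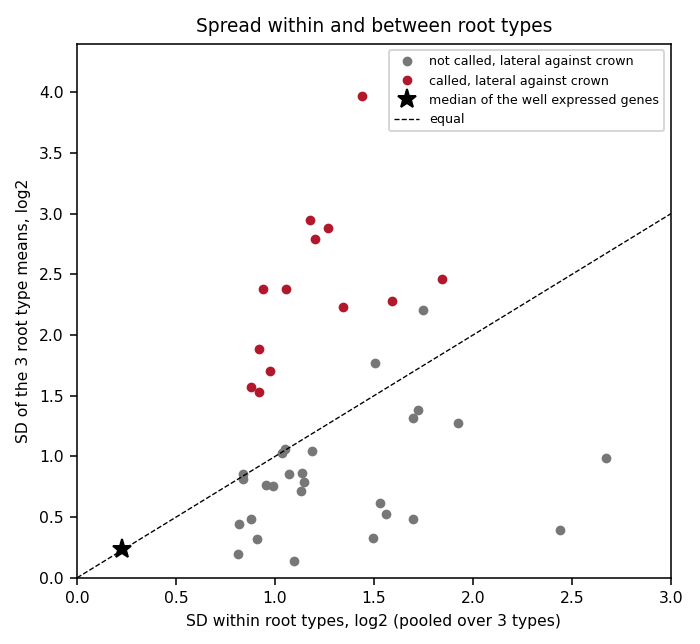
SD of the 3 root type means against the SD within root types (both on the log2(normalised count + 1) scale) for each of the 40 genes, in red where lateral and crown roots differed past the threshold, with a star at the medians of the well expressed genes (0.23 and 0.24) and a dashed line where both are equal. The red genes lie above the line, and 17 of the 40 genes do so in all.

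Root types were compared with limma on log2(normalised count + 1) in 1 fit over the 9 libraries and 19754 genes. A gene was called at an adjusted p (Benjamini-Hochberg over all genes) under 0.01 where its log2 fold change was also 1 or more in size. The standard error of a log2 fold change had a median of 0.72 among the 40 genes, from 0.51 to 1.65, against 0.19 among the well expressed genes. The 95% interval of a log2 fold change accordingly reached a median of 1.59 to either side, against 0.41. A gene of the 40 that was not called may thus still differ by several-fold. The rule raised this error by choosing the spread, so the counts of calls below are descriptions beside the share called among all genes.

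Lateral and crown roots differed past the threshold for 13 of the 40 genes (32.5%), 5 higher and 8 lower in lateral roots. Among all genes tested 13.2% were called, 8.38% higher and 4.84% lower in lateral roots. Of the well expressed genes 13.6% were called. The libraries of the 2 root types lay apart in 16 of the 40 genes, against 43.7% of all genes. The absolute log2 fold change had a median of 1.58 among the 40 and 0.42 among all genes. The median signed change was 0.36, against 0.02 for all genes. Of the 13 called genes, 4 were in group C, 3 in each of groups A and B and 1 in group D.

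Genes lower in lateral than in crown roots were led by Pgl_GLEAN_10015784 of group C, at 21.9 ± 26.9 (SD, n = 3) in lateral and 4439 ± 3984 (SD, n = 3) in crown roots. This was a log2 fold change of -7.94 (standard error 0.90, adjusted p = 0.000105 from limma). Pgl_GLEAN_10007828 of group B was at 28.1, 3.11 and 20.8 in lateral, 1606, 461 and 743 in crown and 284, 97.3 and 74.9 in primary roots. The log2 fold change between lateral and crown roots came to -5.90 (standard error 0.76, adjusted p = 0.000231 from limma). Pgl_GLEAN_10010560 of group D followed with -5.30 (standard error 0.75, adjusted p = 0.000436 from limma). The lateral root levels of all 3 genes included libraries at 30 recovered counts or fewer. The other genes lower in lateral roots were Pgl_GLEAN_10025556, Pgl_GLEAN_10020246, Pgl_GLEAN_10037675, Pgl_GLEAN_10034170 and Pgl_GLEAN_10018525, with log2 fold changes from -4.83 to -3.09. In each of the 8 genes every lateral root library was below every crown root library, which is a description, since the same values gave the calls. The ratio between crown root replicates was 2.65 or more, where the rule required at least 2.5.

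Genes higher in lateral than in crown roots were led by Pgl_GLEAN_10030565, which was in none of the groups A to D. It had 204, 1269 and 1476 in lateral, 35.5, 22.3 and 6.48 in crown and 42.2, 41.5 and 12.7 in primary roots. Lateral roots exceeded crown roots by 5.29 on the log2 scale (standard error 0.82, adjusted p = 0.00076 from limma). Pgl_GLEAN_10008204 of group A had 1265, 628 and 482 in lateral, 17.8, 59.9 and 28.1 in crown and 75.0, 141 and 19.1 in primary roots. It was higher in lateral than in crown roots by 4.50 (standard error 0.69, adjusted p = 0.000674 from limma). Pgl_GLEAN_10019521 had 977, 339 and 309 in lateral, 39.7, 29.4 and 82.0 in crown and 90.2, 291 and 459.7 in primary roots, with a log2 fold change of 3.32 between lateral and crown roots (standard error 0.63, adjusted p = 0.00248 from limma). Lateral and crown root libraries lay apart in each of these genes, though for Pgl_GLEAN_10019521 primary root libraries reached into the lateral range. Pgl_GLEAN_10019205 (3.04) and Pgl_GLEAN_10029441 (3.03) were called in the same direction. The latter, named after its values were seen, had 670.2, 1659.6 and 2226 in lateral, 102, 290.2 and 149 in crown and 799, 258 and 1063 in primary roots.

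Of the 13 genes, 6 were called with each single library left out in turn, and 5 in all 9 alternative fits on the full set of libraries, while the direction held for all 13 in both. The count fell to 8 without lateral root replicate 1 and to 8 without lateral root replicate 3, to 7 without the mean-variance trend and to 6 with voom on recovered counts. The genes called under every alternative fit were Pgl_GLEAN_10008204, Pgl_GLEAN_10020246, Pgl_GLEAN_10007828 and Pgl_GLEAN_10010560. Of the 23 genes above 30 recovered counts in every library, 3 were called, a share near the 13.2% of all genes. The other 10 calls were among the 17 genes with a library at 30 counts or fewer. A mean of at least 200 with so low a library requires a wide range, and the share called among all such genes was not taken.

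**Figure D5:**
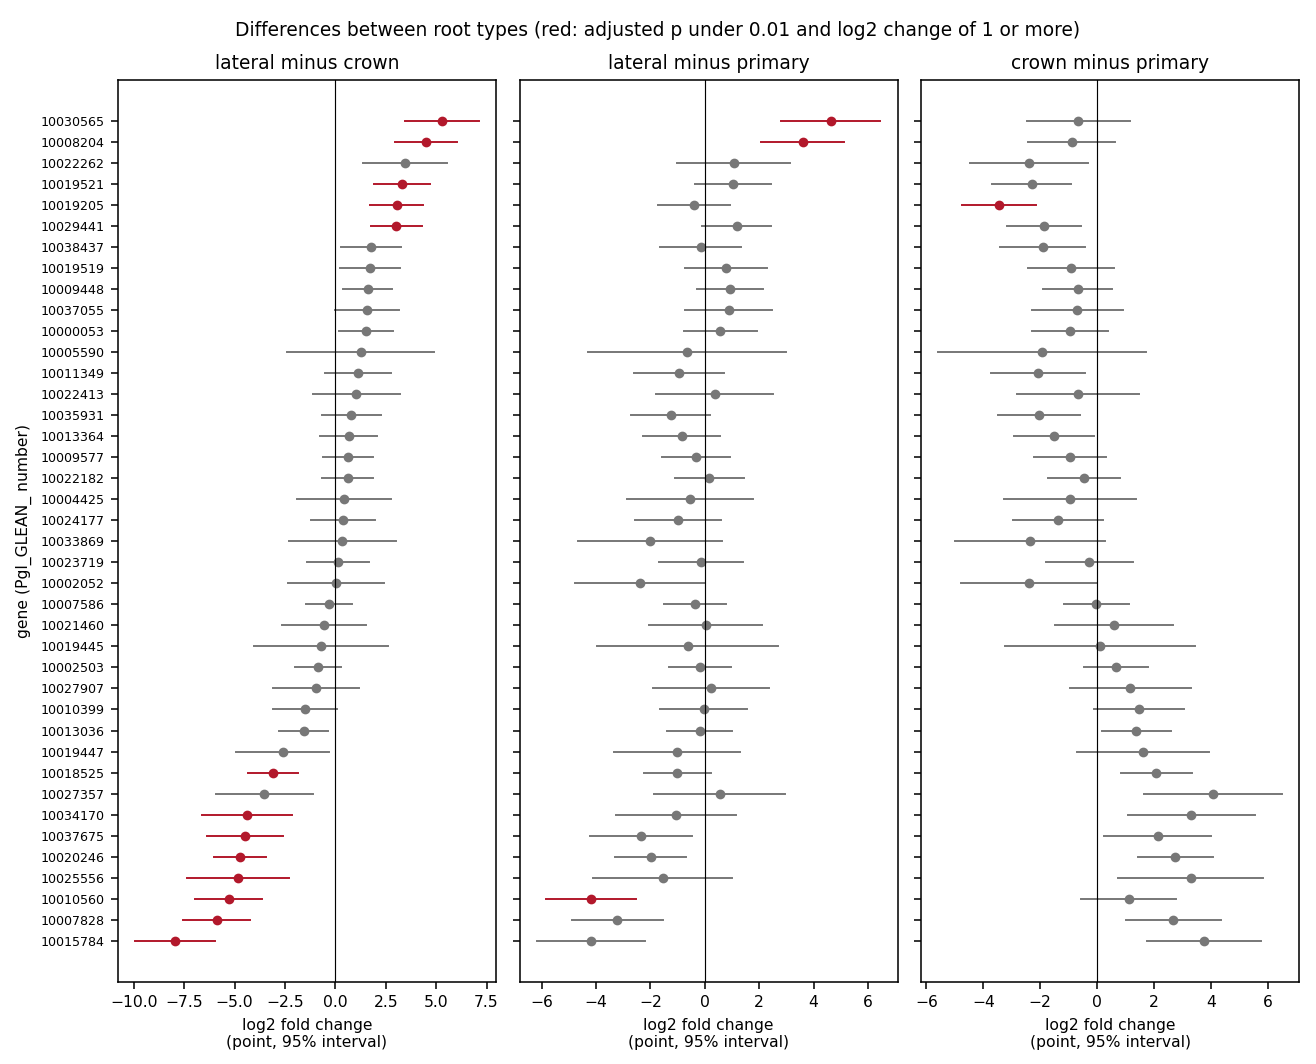
Log2 fold changes (points) with 95% intervals from limma (lines) of the 40 genes between lateral and crown, lateral and primary, and crown and primary roots, on the log2(normalised count + 1) scale, with called genes in red and the genes in the same order in each panel. In the first panel 13 genes are called, from -7.94 to 5.29, in the second 3 and in the third 1.

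Lateral and primary roots differed past the threshold for 3 of the 40 genes (7.5%), against 4.32% of all genes. Of these, 2 were higher in lateral roots (3.24% of all genes) and 1 lower (1.08%). Pgl_GLEAN_10030565 was higher in lateral roots by a log2 fold change of 4.63 (standard error 0.82, adjusted p = 0.00505 from limma), and Pgl_GLEAN_10008204 by 3.60 (standard error 0.69, adjusted p = 0.00701 from limma). Pgl_GLEAN_10010560 was lower in lateral roots, with -4.19 (standard error 0.75, adjusted p = 0.00539 from limma). Each of the 3 genes had a library at 30 recovered counts or fewer. The same 3 genes were also called between lateral and crown roots, in the same direction, and the comparisons share the lateral root libraries. Libraries lay apart in 6 of the 40 genes, against 37.9% of all genes, and the absolute log2 fold change had a median of 0.90, against 0.33. Pgl_GLEAN_10015784 had a log2 fold change of -4.19 with an adjusted p of 0.0123 from limma, and was not called. The count of 3 fell to 0 without primary root replicate 1, primary root replicate 3 or lateral root replicate 3 and to 1 without primary root replicate 2. No mean-variance trend left 0 calls, and 1 was left with voom or with only these root types in the fit.

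Crown and primary roots differed past the threshold for 1 gene (2.5%), against 1.58% of all genes. It was lower in crown roots, as were 1.18% of all genes, while 0.400% were higher. Pgl_GLEAN_10019205, of group A, had 25.1, 34.5 and 65.8 in crown roots against 307, 944 and 276 in primary roots. This was a log2 fold change of -3.45 (standard error 0.60, adjusted p = 0.00857 from limma), and its lowest library held 24 recovered counts. Libraries lay apart in 12 of the 40 genes, against 29.3% of all genes, and the absolute log2 fold change had a median of 1.49, against 0.29. The largest change was that of Pgl_GLEAN_10027357, at 4.07 higher in crown roots with an adjusted p of 0.0486 from limma, which was not called. The single call was lost without any 1 of the libraries other than lateral root replicate 1, and also without the mean-variance trend, with voom, with quantile normalisation and with only these root types in the fit.

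A test for any difference among the 3 root types (moderated F in limma, adjusted p under 0.01, no minimum fold change) was passed by 11 of the 40 genes (27.5%), against 15.0% of all genes. The count was 6 without crown root replicate 1, lateral root replicate 2 or lateral root replicate 3, and 6 without the mean-variance trend and with voom. For each of the 17 calls in the 3 comparisons, the exact permutation p of the mean log2 difference (two-sided) was 0.1, the smallest that 3 replicates against 3 allow.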

How the data were processed

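RNA of 9 libraries (3 root types with 3 replicates) was sequenced on an Illumina platform. The authors obtained read counts with the TOGGLE pipeline, in which reads were trimmed with CutAdapt 3.1, mapped with Hisat2 2.0.1 to ASM217483v2 and assembled into transcripts with Stringtie 1.3.4. They then normalised the counts in DIANE by DESeq2, keeping genes whose counts summed to at least 90. The strand setting of the counting is not given in the sources used. The deposited values are a signal per gene, namely counts divided by 1 size factor per library. Columns were assigned to samples by the names in the sample descriptions, with 0 left unassigned.

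Comparisons used limma 3.58.1 in R 4.3.3 with a pseudocount of 1, all libraries fitted together, a mean-variance trend and no block. The fit was tested on simulated data. Whole counts were recovered for 100% of values as multiples of 1 step per library (tolerance 0.1) for depth and voom. Exact tests used scipy 1.17.1. Members and lists were chosen with earlier results of these data known. Genes named were the 6 with the highest means, the 6 with the highest smallest ratios, up to 3 called genes per direction and comparison, the 3 on either side of the ratio threshold, the 4 most central of each group of at least 5, the 2 least correlated, and the 3 other genes most like group A. Alternatives were other pseudocounts, filters, scalings, thresholds, tests, a replicate block and each library left out. Count models planned as alternatives were not run, because in 2 libraries the lowest value was 2 steps and the size of 1 read stayed unsettled.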

Additional observations from a re-analysis of the deposited data

How the results depend on the processing

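The members were kept fixed while the fits changed, and 231 of 306 values of single called genes stayed called and the other 75 did not, with 0 reversals of direction. The planned count models (edgeR with either scaling, DESeq2) were not run. For lateral against crown roots the count of 13 was 7 without the mean-variance trend, 6 with voom and 8 to 15 with each library left out. For lateral against primary roots the count of 3 was 0 without the trend, 1 with voom, 1 with only these root types, 6 at an adjusted p of 0.05 and 0 to 4 with each library left out. For crown against primary roots the count of 1 was 0 without the trend, with voom, with quantile normalisation and with only these root types, 5 at an adjusted p of 0.05 and 0 to 1 with each library left out. The F test count of 11 was 6 without the trend and with voom, and 6 to 13 with each library left out. With the replicate block the counts were 12, 4, 2 and 8 in the same order, of which 11, 2 and 0 genes of the 3 comparisons were also called without it. Same-numbered libraries had correlations of deviations over all genes from -0.16 to 0.16, with 1 of 9 above 0.1. That pair, primary and crown root replicate 1, had an r of 0.30 over the well expressed genes. These values cannot show whether same-numbered pools shared plants, which the sources do not say. The main fits had no block. A fit without a library has fewer samples. Otherwise the cause was not tested.

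The number of genes that meet the rule moved with its thresholds. It was 115 at a ratio of 2, 17 at a ratio of 3, 75 at a mean of 100 and 13 at a mean of 500, and 12 to 32 with each library left out, where the ratio is taken over 2 replicates in 1 root type. The lowest counts by root type were 12 without lateral root replicate 1, 15 without primary root replicate 2 and 18 without crown root replicate 1. These libraries were the ones most often highest among the 40, so many of the genes met the rule through them. With equal totals it was 42 and with quantile normalisation 46, of which 40 and 37 were among the 40. At a ratio of 3 or a mean of 500, 17 and 13 genes were left. Lateral root replicate 1 was highest for 9 and 9 of them, primary root replicate 2 for 6 and 5 and crown root replicate 1 for 11 and 8. The primary root counts were then near the 33.5% of the well expressed genes. The crown root counts were above the 46.5% of those genes, and at a ratio of 3 above the lateral root count.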

Other observations

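With the ratio lowered to 2, a set chosen on the same values, 115 genes met the rule, and 25 of them (21.7%) were highest in primary root replicate 2, crown root replicate 3 and lateral root replicate 1, against 6.47% of the well expressed genes. The next most common combination, primary root replicate 1, crown root replicate 1 and lateral root replicate 3, was held by 15 of the 115 genes, and by 8.98% of the well expressed genes. The 115 include all 40 genes, of which 13 held the first combination and 2 the second. Outside the 40, the first combination was thus not ahead of the second. Outside the 40 genes, the one most like group C was Pgl_GLEAN_10020758 (r = 0.99 with the mean deviation of the group over the 9 libraries), with ratios between replicates of 1.69 in primary, 1.32 in crown and 1.27 in lateral roots. The one most like group B was Pgl_GLEAN_10022051 (r = 0.98), with ratios of 1.27, 1.52 and 1.16. Both genes were picked for having the highest r of many genes.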
